A study of Anopheles gambiae with 18 samples.

Results

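Serpins are protease inhibitors that act as suicide substrates. A serine protease cuts the exposed reactive center loop of the serpin, and the 2 proteins stay bound to each other. In insects they restrain proteolytic cascades, among them the CLIP-domain protease cascade that activates prophenoloxidase in melanization and, in Drosophila, the cascade upstream of Toll. Serpin 6 of Anopheles gambiae is known for its induction in midgut cells that malaria parasites invade. The mosquitoes assayed here had not taken blood.

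The midgut serpins described here are the 5 serpin transcripts that the text of the study names, out of 14197 transcripts on the array. They were taken by their transcript identifiers. They are ENSANGT00000010545 (SERPIN 6), ENSANGT00000024710 (SERPIN SRP15, or serpin 15) and 3 transcripts that share the name SERPIN SPI1B, which are ENSANGT00000024799, ENSANGT00000024759 and ENSANGT00000024786. All 5 had a value on each of the 18 arrays. ENSANGT00000024759 had 2 spots and the other 4 had 1 spot each. No probe sequences were used here, so that it could not be checked whether the spots of the 3 SPI1B transcripts tell them apart.

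The samples were midguts of the Keele strain, from unfed adults of 4 days of age, hybridized in 6 comparisons to 3 two-dye oligonucleotide arrays per comparison. Male midgut was set against female midgut, and cardia against posterior midgut. Whole female midgut was the sample against which the cardia and the anterior, anterior-posterior or posterior-posterior compartment were each hybridized. The cardia is the valve region at the front of the midgut. The age was missing from the label of 1 array. The methods call the arrays biological replicates, but neither the labels nor the methods say how many midguts were pooled. The first-named sample always carried Cy5 and the other Cy3, and the dyes were never swapped, which means that dye bias and sample differences cannot be told apart. A transcript rises in such a ratio when the compartment holds more of the cells that express it or when each cell holds more of it, and these cannot be told apart in dissected tissue.

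The values are log2 ratios of Cy5 to Cy3, given after each array was centered. The center was the median of the 1937 transcripts that the study kept for its male and female midgut assay. A value of 1 is thus a ratio 2-fold above that center. With the median of all transcripts as the center instead, the mean ratios moved up by 0.68 for male against female midgut, 0.21 for cardia against posterior, and 0.10 for the cardia against whole midgut. The anterior compartment moved up by 0.79, the anterior-posterior by 0.88 and the posterior-posterior by 0.48. All directions below are relative to the first center. A call required an adjusted p under 0.05 (limma, Benjamini-Hochberg) together with a mean ratio 2-fold or more away from the center. The 3104 transcripts tested were chosen by the study in part on these same arrays. The cardia against whole midgut arrays had 12273, 14147 and 15041 spots with a value. The other arrays had 15016 to 15494, a range that holds the third of these counts. In r between pairs of arrays the cardia against whole midgut arrays stood apart, with -0.05 to 0.06 across the transcripts tested. In the other 5 comparisons r was between 0.14 and 0.77.

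**Figure D1:**
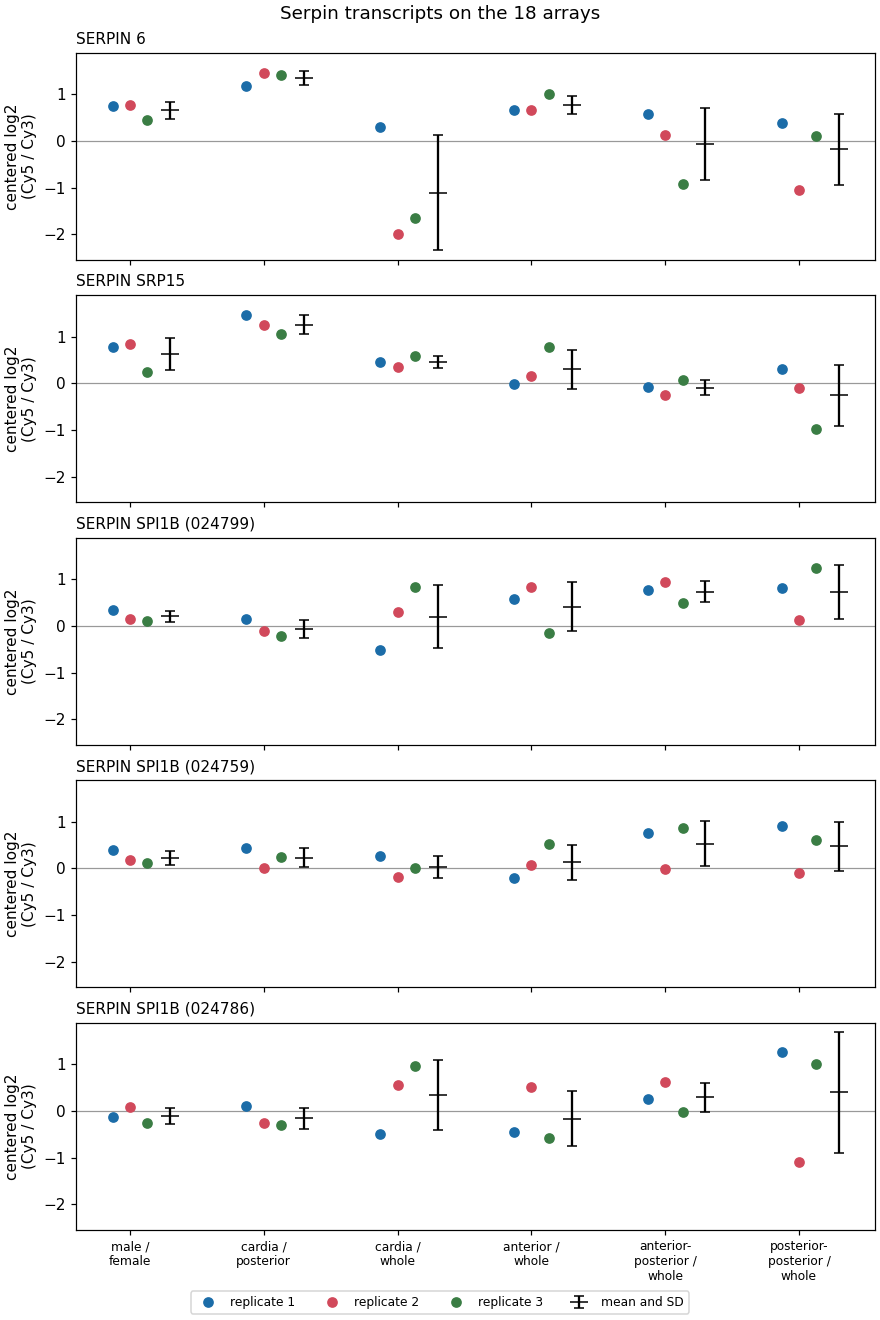
Centered log2 ratio of Cy5 to Cy3 (vertical axis) of the 5 serpin transcripts in the 6 comparisons (horizontal axis), with 1 point per array and the mean and SD of the 3 arrays as a bar. SERPIN 6 and SERPIN SRP15 lie above 1 on all 3 cardia against posterior arrays, while the 3 SPI1B transcripts lie between -0.31 and 0.43 there. SERPIN 6 spans -1.98 to 0.30 on the cardia against whole midgut arrays.

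The serpins separated into a pair and a trio when the cardia was set directly against the posterior midgut. The mean ratios of SERPIN 6 and SERPIN SRP15 lay above the center by 2.53-fold and 2.39-fold, and the 3 SPI1B transcripts lay near it. One of the 5 serpins, SERPIN SRP15, rose in the cardia by the call rule, against 4.32% of all 3104 transcripts tested (3.09% in that direction). SERPIN 6 missed the threshold, and its ratio derived through whole midgut had the opposite sign (-0.98).

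SERPIN SRP15 had centered log2 ratios of 1.47, 1.24 and 1.06 on the 3 arrays of the cardia against the posterior midgut. All 3 exceeded a 2-fold change. The mean was 1.26 ± 0.21 (SD, n = 3), with an adjusted p of 0.0091 by limma. When all 14191 transcripts with values in this comparison were tested, of which 0.275% were called, the adjusted p was 0.098, so that the call rests on the set of transcripts tested. It was also lost without any 1 of the 3 replicates, with mean ratios of 1.15 to 1.35 and adjusted p between 0.0598 and 0.0921.

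SERPIN 6 had ratios of 1.17, 1.44 and 1.41 on the same arrays, all above the 2-fold line. Its mean of 1.34 ± 0.15 (SD, n = 3) was the highest of the 5 serpins, but the adjusted p of 0.0511 by limma missed the threshold. The fit shares 1 spread per transcript over the 18 arrays, and SERPIN 6 had an SD of 1.23 on the cardia against whole midgut arrays. With those 3 arrays left out of the fit the adjusted p was 0.0090, and with the 3 cardia against posterior arrays alone it was 0.0217. It was called higher along with SERPIN SRP15 when the arrays were centered on all transcripts (adjusted p = 0.0358), as were 4.77% of all transcripts tested. Other settings went the other way. Without any 1 of the 3 replicates the mean was 1.29 to 1.43, with adjusted p between 0.140 and 0.245 by limma. SERPIN 6 was not called either when all transcripts on the array were tested.

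The SPI1B transcripts showed no such difference. ENSANGT00000024759 had ratios of 0.43, 0.01 and 0.24 in the cardia against the posterior midgut, ENSANGT00000024799 had 0.14, -0.12 and -0.22, and ENSANGT00000024786 had 0.10, -0.27 and -0.31. Their means were 0.23 ± 0.21, -0.07 ± 0.18 and -0.16 ± 0.23 (SD, n = 3 each), with adjusted p between 0.66 and 0.93 by limma.

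Differences between 2 transcripts on the same array do not depend on the center. SERPIN SRP15 exceeded ENSANGT00000024799 by 1.32 ± 0.04, ENSANGT00000024786 by 1.42 ± 0.08 and ENSANGT00000024759 by 1.03 ± 0.20 on the cardia against posterior arrays (log2, SD, n = 3 each). SERPIN 6 exceeded the same 3 transcripts by 1.41 ± 0.33, 1.50 ± 0.38 and 1.11 ± 0.35. SERPIN 6 and SERPIN SRP15 themselves differed by 0.08 ± 0.34, with SERPIN 6 the higher on 2 of 3 arrays. These differences between transcripts are descriptions without a test.

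**Figure D2:**
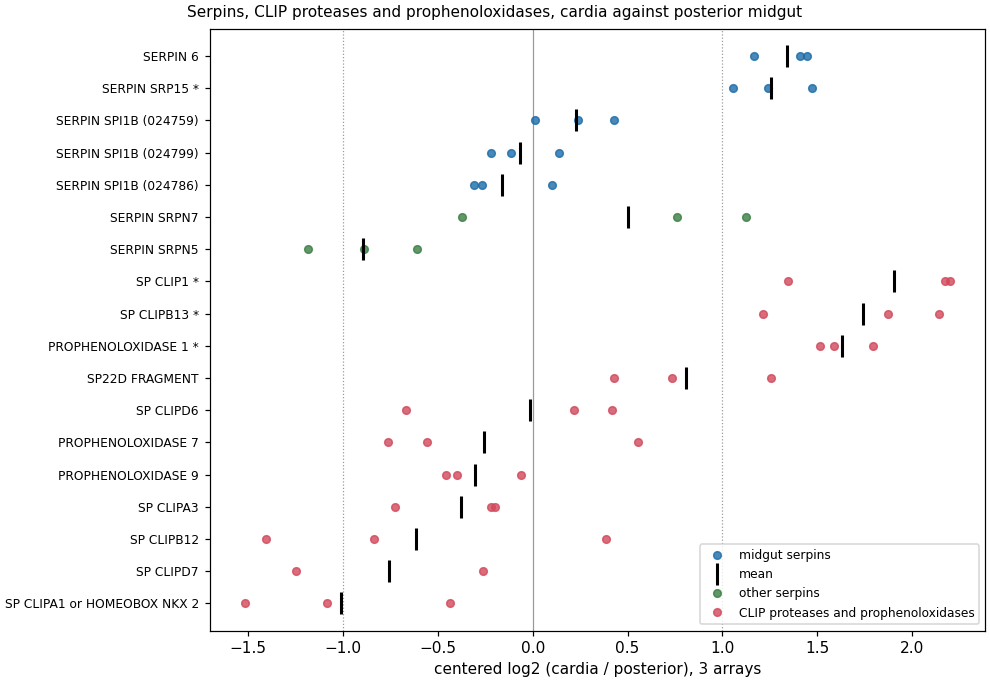
Centered log2 ratio of the cardia to the posterior midgut (horizontal axis) of the 5 midgut serpins, 2 other serpins and 11 CLIP-domain protease and prophenoloxidase transcripts, with 1 point per array and the mean as a vertical bar. Dotted lines mark a 2-fold change, and an asterisk marks the 4 called transcripts, SERPIN SRP15, CLIP1, CLIPB13 and prophenoloxidase 1. SP CLIPD7 had values on 2 of the 3 arrays, and the 11 include SP22D.

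Members of the cascade that serpins can restrain were among the transcripts higher in the cardia. Of 11 CLIP-domain protease and prophenoloxidase transcripts, 3 rose in the cardia against the posterior midgut and none fell, where 3.09% of all transcripts tested rose and 1.22% fell, while the median over the 11 was -0.26, against -0.20 over all transcripts tested. CLIPA4, which the study lists among the cardia peptides with a transcript higher in the posterior midgut, was not among the 11. Some CLIP-domain proteases act in the melanization cascade, and prophenoloxidase is the zymogen activated in it. The 11 include SP22D, which the study calls an immune-related serine protease and does not name as CLIP. CLIP1 (ENSANGT00000020158) had ratios of 1.35, 2.20 and 2.17, with a mean of 1.91 ± 0.49 (SD, n = 3) and an adjusted p of 0.0031 by limma. CLIPB13 (ENSANGT00000012642) had 1.21, 1.87 and 2.14, with a mean of 1.74 ± 0.48 (SD, n = 3) and an adjusted p of 0.0044 by limma. Prophenoloxidase 1 (ENSANGT00000016955) had 1.52, 1.79 and 1.59, with a mean of 1.63 ± 0.14 (SD, n = 3) and an adjusted p of 0.0091 by limma. All 9 of these values lay above the 2-fold line. The calls of CLIP1 and CLIPB13 were lost without replicate 2 or without replicate 3, and that of prophenoloxidase 1 without any 1 of them. Prophenoloxidase 1 was not called either when all transcripts were tested (adjusted p = 0.0710 by limma). CLIPA1 (ENSANGT00000020261), which the annotation of the study also lists under a homeobox name, had the lowest mean of the list at -1.01 ± 0.55 (SD, n = 3) and was not called.

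Of 46 further serine proteases without a specific name, 2 rose and 1 fell in the cardia against the posterior midgut, where 3.09% and 1.22% of all transcripts tested did so. Their median was -0.49, against -0.20 over all transcripts tested. The highest mean among those called in this comparison was that of ENSANGT00000015802, at 2.32 ± 0.36 (SD, n = 3, adjusted p = 0.0036 by limma). Over all comparisons the highest mean change among the called serine proteases was that of ENSANGT00000022294, at 2.77 ± 3.09 for the cardia against whole midgut. It was 1.05 without replicate 1 and no longer called.

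Marker lists of salivary gland, muscle, posterior trypsins and antimicrobial peptides were read on the same arrays, where the share called over all transcripts tested was again 3.09% higher and 1.22% lower. In the cardia against the posterior midgut, 1 of 4 salivary gland transcripts rose and none fell (median 0.85, range -0.80 to 1.59). None of 24 muscle transcripts rose and 1 fell (median -0.30). None of 4 trypsins of the posterior midgut was called by limma (median -0.32), with 1 at an unadjusted p under 0.05 and none by the methods' t-test with a 2-fold change. Of 4 antimicrobial peptides, 1 rose by limma (median 1.49, range 1.23 to 1.69), while all 4 had an unadjusted p under 0.05 and passed the methods' t-test with a 2-fold change. Over all 3104 transcripts tested in this comparison, 709 had an unadjusted p under 0.05 by limma. The methods' test with a 2-fold change was passed by 218 of them. The part of the salivary gland transcripts in the serpin ratios was not tested.

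The compartments set against whole female midgut gave a different picture. None of the 5 serpins was called in any of these 4 comparisons by limma, where the share of called transcripts among those tested was 2.86% (cardia), 5.03% (anterior), 14.1% (anterior-posterior) and 0% (posterior-posterior). At an unadjusted p under 0.05 there was 1 of the 5 serpins in each but the anterior compartment, where there was none. Among all transcripts tested, 592 of 3077 (cardia), 1040 of 3104 (anterior), 1189 of 3104 (anterior-posterior) and 597 of 3103 (posterior-posterior) had such a p. The methods' t-test at its threshold with a 2-fold change found none in any of the 4, where 42, 330, 201 and 81 of all transcripts tested passed. With the center on all transcripts, 3 serpins were called higher in the anterior compartment, as were 19.5% of all transcripts tested, and 2 in the anterior-posterior compartment, as were 27.9%. Whole midgut contains each of these compartments. The study attributes its few posterior-enriched genes in part to the large posterior share of whole-midgut RNA, and compared cardia and posterior directly for this reason. A missing call against whole midgut therefore does not show equal levels along the midgut.

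In the cardia against whole midgut, SERPIN 6 had ratios of 0.30, -1.98 and -1.64. One array lay above the center and 2 lay far below it. The mean was -1.11 ± 1.23 (SD, n = 3, adjusted p = 0.111 by limma), the lowest of the 5 serpins in any comparison. Without replicate 1, the array that lay above the center, it was -1.81, with an adjusted p of 0.0164 by limma. Over the omission of each replicate in turn, the mean ranged from -1.81 to -0.67 and the adjusted p from 0.0164 to 0.372.

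SERPIN SRP15 had 0.45, 0.34 and 0.59 on the same cardia against whole midgut arrays, all above the center and close together. Its mean was 0.46 ± 0.13 (SD, n = 3, adjusted p = 0.336 by limma). ENSANGT00000024799 had -0.52, 0.29 and 0.82 and ENSANGT00000024786 had -0.50, 0.55 and 0.95 there. These 2 SPI1B transcripts were low on the array where SERPIN 6 was high, and high on the arrays where it was low. ENSANGT00000024759 had 0.27, -0.19 and 0.00 as the mean of its 2 spots, which did not share 1 order over the arrays. Its first spot had -0.19, -0.10 and 0.21, rising over the arrays as the other SPI1B transcripts did. The second spot had 0.73, -0.27 and -0.21, in the same order as SERPIN 6.

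The direct and the derived ratios of the cardia to the posterior midgut were then set side by side, a contrast chosen after the values had been seen. The derived ratio is the mean log2 ratio of the cardia to whole midgut minus the mean of those of the anterior-posterior and posterior-posterior compartments. For SERPIN 6 the direct ratio was 1.34 and the derived ratio was -0.98. They differed by 2.32 (SE 0.60, adjusted p = 0.0292 by limma). Of all transcripts tested, 8.06% were called in this contrast, 1.4% with the direct ratio higher and 6.66% with it lower. The derived ratio draws on the cardia against whole midgut arrays, where r between pairs of arrays was -0.05 to 0.06. For SERPIN 6 the difference was 2.00 and no longer called without replicate 2, and 2.16 and no longer called without replicate 3. It was not called either when all transcripts on the array were tested (adjusted p = 0.0646). For SERPIN SRP15 the direct ratio of 1.26 and the derived ratio of 0.63 had the same sign, and their difference of 0.62 (SE 0.41) was not called (adjusted p = 0.34 by limma). The posterior midgut of the direct comparison was a sample of its own, and whether it matches the sum of both posterior compartments cannot be told from the labels.

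**Figure D3:**
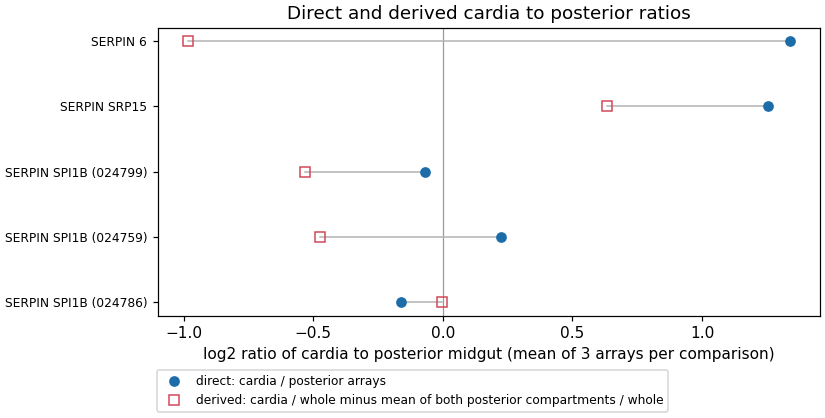
Log2 ratio of the cardia to the posterior midgut (horizontal axis) of each serpin transcript, measured directly (filled circles) and derived from the compartments against whole midgut (open squares), as means of 3 arrays per comparison. SERPIN 6 has 1.34 directly and -0.98 derived, and SERPIN SRP15 has 1.26 and 0.63.

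In the anterior compartment against whole midgut, SERPIN 6 had ratios of 0.66, 0.66 and 0.99. All lay above the center and below the 2-fold line. The mean of 0.77 ± 0.19 (SD, n = 3) had an adjusted p of 0.161 by limma. With the center on all transcripts it was 1.56 and called (adjusted p = 0.0146), as were SERPIN SRP15 at 1.09 and ENSANGT00000024799 at 1.20. SERPIN SRP15 had -0.02, 0.16 and 0.77. Among the SPI1B transcripts, ENSANGT00000024799 had 0.56, 0.83 and -0.16, ENSANGT00000024759 had -0.21, 0.06 and 0.53, and ENSANGT00000024786 had -0.44, 0.50 and -0.58, so that each of the 3 lay on both sides of the center.

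In the anterior-posterior compartment against whole midgut, the SPI1B transcript ENSANGT00000024799 had 0.77, 0.94 and 0.49. It lay above the center on all 3 arrays, as did 16.2% of the transcripts with 3 values. Its mean of 0.73 ± 0.22 (SD, n = 3) had an adjusted p of 0.0758 by limma. With the center on all transcripts it was 1.61 (adjusted p = 0.0049) and that of ENSANGT00000024759 was 1.41 (adjusted p = 0.0026), and both were called. ENSANGT00000024759 had 0.75, -0.02 and 0.85 and ENSANGT00000024786 had 0.26, 0.61 and -0.02. SERPIN SRP15 was close to the center, with -0.08, -0.26 and 0.06, and SERPIN 6 had 0.57, 0.13 and -0.92.

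In the posterior-posterior compartment against whole midgut, ENSANGT00000024799 had 0.81, 0.12 and 1.25, with a mean of 0.72 ± 0.57 (SD, n = 3, adjusted p = 0.184 by limma). ENSANGT00000024759 had 0.91, -0.11 and 0.61, and ENSANGT00000024786 had 1.26, -1.08 and 1.00. The second array was the lowest of the 3 for each SPI1B transcript. SERPIN 6 had 0.39, -1.04 and 0.11 and was also lowest on the second array. SERPIN SRP15 had 0.31, -0.09 and -0.97.

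Ordered by mean ratio to whole midgut, SERPIN 6 was highest in the anterior compartment, followed by the anterior-posterior, the posterior-posterior and the cardia. SERPIN SRP15 was highest in the cardia, followed by the anterior, the anterior-posterior and the posterior-posterior compartment. ENSANGT00000024799 and ENSANGT00000024759 shared 1 order, with the anterior-posterior compartment first and then the posterior-posterior, the anterior and the cardia. ENSANGT00000024786 was highest in the posterior-posterior compartment, followed by the cardia, the anterior-posterior and the anterior. None of the 15 neighbors in these orders was called different by limma, with unadjusted p of at least 0.10. Of all 30 differences between compartments, none was called, where 0.942% of the transcripts tested were called between the cardia and the anterior, 4.71% between the cardia and the anterior-posterior, 0.488% between the cardia and the posterior-posterior compartment and 0% in the other 3 pairs. Among the 30, 1 had an unadjusted p under 0.05. This was the difference of SERPIN 6 between the cardia and the anterior compartment, at -1.88 (SE 0.53, adjusted p = 0.0763 by limma). Without replicate 1 it was -2.64, with an adjusted p of 0.0480 by limma. Over the omission of each replicate in turn, the difference ranged from -2.64 to -1.50 and the adjusted p from 0.0480 to 0.252.

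No serpin was called between male and female midguts by limma, where 4.9% of the transcripts tested were called. At an unadjusted p under 0.05 there was 1 of the 5, SERPIN SRP15, and the methods' t-test at its threshold with a 2-fold change found none. Of all 3104 transcripts tested, 799 had such a p and 207 passed the methods' test with a 2-fold change. SERPIN 6 had ratios of 0.75, 0.76 and 0.45 in the male against the female midgut, and SERPIN SRP15 had 0.78, 0.85 and 0.24. For SERPIN SRP15 this direction, taken from the dyes, opposes the one that the study gives. Both lay above the center on all 3 arrays, as did 18.6% of the transcripts with 3 values. Their means were 0.65 ± 0.18 and 0.62 ± 0.34 (SD, n = 3 each), with adjusted p of 0.287 and 0.144 by limma. With the center on all transcripts the means were 1.33 and 1.30 and both were called higher in the male midgut, with adjusted p of 0.0465 and 0.0081, as were 11.7% of the transcripts tested.

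The SPI1B transcripts had smaller ratios between the sexes. ENSANGT00000024799 had 0.34, 0.15 and 0.11, ENSANGT00000024759 had 0.40, 0.18 and 0.10, and ENSANGT00000024786 had -0.13, 0.08 and -0.26 in the male against the female midgut. SERPIN 6 exceeded them by 0.45 ± 0.14, 0.43 ± 0.14 and 0.76 ± 0.11 on the same arrays (log2, SD, n = 3 each), on all 3 arrays for each. ENSANGT00000024799 and ENSANGT00000024759 differed by 0.03 ± 0.03.

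**Figure D4:**
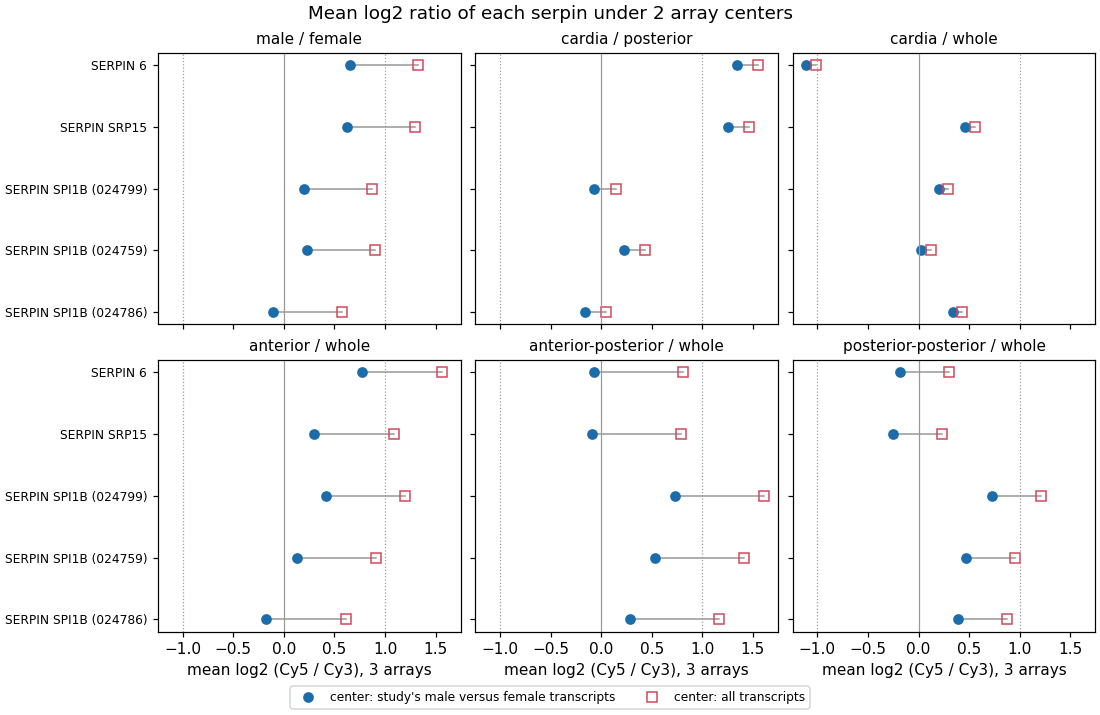
Mean log2 ratio of Cy5 to Cy3 over 3 arrays (horizontal axis) of the 5 serpin transcripts in the 6 comparisons, with arrays centered on the transcripts the study kept for its male and female midgut assay (filled circles) or on all transcripts (open squares). Dotted lines mark a 2-fold change. The shift is 0.10 for the cardia against whole midgut and 0.88 for the anterior-posterior compartment against whole midgut, and it is the same for each transcript of a comparison.

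Among themselves, the serpins did not vary as 1 group under the first center. Over the 18 arrays, ENSANGT00000024799 and ENSANGT00000024786 had the most similar ratios, with Pearson's r of 0.76. Their deviations from the mean of each comparison had an r of 0.84. The transcript ENSANGT00000024799 ranked 3 of 2475 among the transcripts most like ENSANGT00000024786. The third SPI1B transcript, ENSANGT00000024759, had an r of 0.19 and 0.29 with them. SERPIN SRP15 had an r of 0.40 with SERPIN 6 and of -0.67 with ENSANGT00000024799. These values share the center of each array and depend on it. With the center on all transcripts, the r between ENSANGT00000024799 and ENSANGT00000024786 was 0.89, that between ENSANGT00000024799 and ENSANGT00000024759 was 0.76, and that between SERPIN SRP15 and ENSANGT00000024799 was 0.04. All pairs of the serpins had a positive r with that center, and SERPIN 6 and SERPIN SRP15 had 0.62. Under the first center without the cardia against whole midgut arrays, SERPIN SRP15 had an r of 0.67 with SERPIN 6 and of -0.79 with ENSANGT00000024799.

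The 2 spots of ENSANGT00000024759 gave different ratios in the comparisons against whole midgut. In the anterior compartment against whole midgut, the first spot had 0.64, 0.86 and 1.49 and the second had -1.06, -0.73 and -0.44. The spots lay on opposite sides of the center on all 3 arrays. In the anterior-posterior compartment the first spot had 1.17, 1.00 and 0.96 and the second had 0.33, -1.03 and 0.74. In the posterior-posterior compartment the first had 1.55, 0.35 and 1.32 and the second had 0.26, -0.57 and -0.10. In the cardia against whole midgut the first spot had -0.19, -0.10 and 0.21 and the second had 0.73, -0.27 and -0.21. Between the male and female midguts, by contrast, they were 0.39 ± 0.27 and 0.07 ± 0.11, and in the cardia against the posterior midgut 0.20 ± 0.21 and 0.25 ± 0.32 (SD, n = 3 each). The median absolute difference between the spots was 0.71 over the 18 arrays, and it was 0.69 over the 335 tested transcripts with a first and a second spot. From the first spot alone, ENSANGT00000024759 rose in the anterior-posterior compartment, with a mean of 1.05 and an adjusted p of 0.0184 by limma. From the second spot alone the mean was 0.01.

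**Figure D5:**
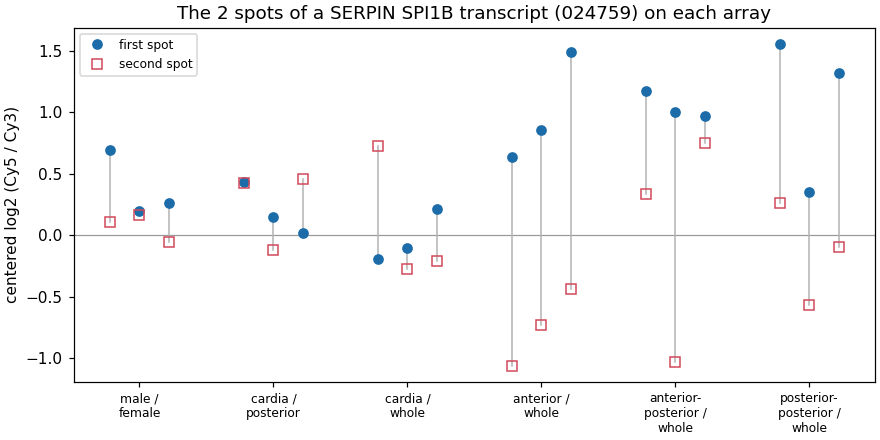
Centered log2 ratio of Cy5 to Cy3 (vertical axis) at the first (filled circles) and the second spot (open squares) of the SPI1B transcript ENSANGT00000024759, on the 3 arrays of each comparison (horizontal axis). On the anterior against whole midgut arrays the first spot lies between 0.64 and 1.49 and the second between -1.06 and -0.44.

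Ratios made of a few units of signal equal a fraction of small whole numbers, here one with a denominator of up to 10 within 0.00051. The spots of the 5 serpins had such a ratio on at most 1 of the 18 arrays each. Over the spots of all transcripts tested the share was 3.71% to 54.6%, depending on the array. No signal intensities were used here, so that the level of the serpins could not be ranked.

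For each serpin, the 3 tested transcripts with the most similar ratios over the 18 arrays were taken from the 2476 with a value on all arrays. SERPIN SRP15 was followed most closely by PGRPLC1 (ENSANGT00000010323), a peptidoglycan recognition protein, with an r of 0.89. Next were ENSANGT00000029394, which carries no other name, at 0.85 and the serine protease ENSANGT00000014152 at 0.84. SERPIN 6 was followed by a chitinase (ENSANGT00000006959) with an r of 0.94, a Ras-related Rab protein (ENSANGT00000022375) at 0.84 and an ankyrin (ENSANGT00000016781) at 0.82. Chitinases cut chitin, a component of the peritrophic matrix.

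The SPI1B transcripts had other neighbors. ENSANGT00000024799 was followed by ENSANGT00000021713 with an r of 0.89, a beta-hexosaminidase beta chain precursor (ENSANGT00000000312) at 0.86 and ENSANGT00000013143 at 0.85. ENSANGT00000024786 was followed by an acyl-CoA dehydrogenase (ENSANGT00000020722) and an aldehyde dehydrogenase (ENSANGT00000013314), both at 0.76, and then by the SPI1B transcript ENSANGT00000024799. ENSANGT00000024759 was followed by an alcohol dehydrogenase (ENSANGT00000020590) at 0.79, a 26S protease regulatory subunit (ENSANGT00000016050) at 0.77 and a second Ras-related Rab protein (ENSANGT00000022378) at 0.68. These values describe the arrays and were not tested.

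The annotation of the study names 2 further serpins, SRPN7 and SRPN5, whose ratios differed from those of the 5. SRPN7 (ENSANGT00000020725) had -1.95, -1.41 and -2.67 in the anterior compartment against whole midgut. It fell there, with a mean of -2.01 ± 0.63 (SD, n = 3, adjusted p = 0.0411 by limma), a call that was lost without any 1 of the 3 replicates. SRPN5 (ENSANGT00000010507) had -0.76, -2.37 and -2.50 in the male against the female midgut. It was lower in the male midgut, with a mean of -1.88 ± 0.97 (SD, n = 3, adjusted p = 0.0198 by limma), a call that was lost without replicate 2 or 3. SRPN5 also fell in the anterior-posterior compartment, where it had -2.21, -1.53 and -0.55 and a mean of -1.43 ± 0.84 (SD, n = 3, adjusted p = 0.0197 by limma). That call was lost without replicate 1 or 2, and the mean was -0.55 and not called with the center on all transcripts. SRPN7 and SRPN5 had a ratio equal to a small fraction on 6 of 17 and 5 of 16 arrays with a value.

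Outside the direct comparison of the cardia, 3 calls of lower abundance were made among the CLIP-domain protease and prophenoloxidase transcripts. In the anterior-posterior compartment against whole midgut, 2 of the 11 fell and none rose, where 10.2% of all transcripts tested fell, with a median of -0.76 against -0.33 over all transcripts tested. Prophenoloxidase 1 had a mean of -1.71 ± 0.75 and prophenoloxidase 7 (ENSANGT00000010746) of -1.15 ± 0.39 there (SD, n = 3 each), with adjusted p of 0.0096 and 0.0429 by limma. Neither was called with the center on all transcripts, where the means were -0.83 and -0.27, nor without replicate 1 or without replicate 2. In the anterior compartment, CLIPB12 (ENSANGT00000010496) fell, where 3.87% of all transcripts tested fell, with -1.28, -1.63 and -1.02 and a mean of -1.31 ± 0.31 (SD, n = 3, adjusted p = 0.0340 by limma). It was not called with the center on all transcripts (-0.52) or without any 1 replicate. None of the 11 was called in the cardia or posterior-posterior compartment against whole midgut or between the sexes by limma. In these comparisons 2, 4 and 3 of them had an unadjusted p under 0.05. So did 592 of 3077, 597 of 3103 and 799 of 3104 of all transcripts tested. None of the 11 passed the methods' test with a 2-fold change, where 42, 81 and 207 of all transcripts tested did.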

How the data were processed

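The authors deposited, for each spot of 18 two-dye arrays, a log2 ratio of Cy5 to Cy3. Per the methods the spots were scanned with GenePix, cut at a signal threshold, normalized by LOWESS and tested by t-tests, but the deposited log2 ratios carry neither the cut nor the normalization, and intensities were not used here. In 120 spots a placeholder ratio of 100000 was set missing. Spots were averaged per transcript. Arrays were centered on the median of the 1937 transcripts of the study's male and female list, and the 3104 transcripts of all its lists were tested. One limma 3.58.1 fit (R 4.3.3) of 18 arrays, without a block, gave each comparison its mean and shared 1 spread per transcript. A call needed values on 2 arrays, a mean change of 2-fold or more and an adjusted p (Benjamini-Hochberg, by comparison) under 0.05. The fit was tested on simulated data. The methods' t-test was run on the same values. Figures and tables used Python 3.11.15. Alternatives were another center, all transcripts tested, other sets of arrays, each replicate left out, a replicate block and single spots.

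The members and the lists were chosen with earlier results of these data known. Named are the 5 serpins, both other serpins, called CLIP-domain proteases and prophenoloxidases or otherwise the largest mean changes of that list, at most 2 called serine proteases, and the 3 transcripts most like each serpin over the 18 arrays. CLIPA1 was named as the lowest of its list and ENSANGT00000014152 by its likeness. Gene names are those of the study. With 3 arrays per comparison, the precision of each mean is limited.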

Additional observations from a re-analysis of the deposited data

Results flagged for a closer look

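The direct ratio of the cardia to the posterior midgut of SERPIN 6 differed from the ratio derived through whole midgut by 2.32 on the log2 scale (limma, adjusted p = 0.0292), a test of the difference between both estimates of 1 contrast that was picked once the values were known. It was the one serpin result past the threshold among the differences between compartments and between direct and derived ratios. Groups of 3 arrays were not tested for outlying arrays.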

How the results depend on the processing

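Of the 5 serpins, the number called in the cardia against the posterior midgut was 1, and it was 2 with arrays centered on all transcripts, with the 3 arrays of the comparison alone, without the cardia against whole midgut arrays in the fit, and by the methods' t-test at its threshold, where SERPIN 6 joined SERPIN SRP15 (0 by that test after Benjamini-Hochberg adjustment). It was 0 when all transcripts on the array were tested and 0 without any 1 replicate, a fit with fewer arrays. With the center on all transcripts, 2 serpins were called between the sexes, 3 in the anterior and 2 in the anterior-posterior compartment, where 11.7%, 19.5% and 27.9% of all transcripts tested were called higher (4.77% in the cardia against the posterior midgut), and with all transcripts tested as well 1 between the sexes and 2 in the anterior-posterior compartment. The first spot of ENSANGT00000024759 alone, an alternative chosen after seeing the data, gave 1 in the anterior-posterior compartment. Without 1 replicate, 0 to 1 serpins were called in the cardia against whole midgut, 0 to 1 between the cardia and the anterior compartment and 0 to 1 for the direct against the derived ratio, where testing all transcripts gave 0. For these changes of calls, beyond fewer arrays or other transcripts tested, the cause was not tested.

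Signs of small ratios turned with the center on all transcripts, with either tested set. The means became 0.57 (ENSANGT00000024786, sexes), 0.62 (ENSANGT00000024786, anterior), 0.81 (SERPIN 6, anterior-posterior), 0.79 (SERPIN SRP15, anterior-posterior), 0.30 (SERPIN 6, posterior-posterior), 0.23 (SERPIN SRP15, posterior-posterior), 0.14 (ENSANGT00000024799, cardia against posterior) and 0.049 (ENSANGT00000024786, cardia against posterior). By spot, ENSANGT00000024759 turned to -0.030 in the cardia against whole midgut from the first, and to -0.74 in the anterior and -0.13 in the posterior-posterior compartment from the second. Leaving out 1 replicate in turn gave ranges across 0 for SERPIN 6 in the anterior-posterior (-0.39 to 0.35) and posterior-posterior (-0.47 to 0.25) compartments and for SERPIN SRP15 in the posterior-posterior compartment (-0.53 to 0.11). It did so for ENSANGT00000024759 in the anterior (-0.074 to 0.29) compartment and the cardia against whole midgut (-0.094 to 0.13), for ENSANGT00000024786 in the anterior (-0.51 to 0.031) and posterior-posterior (-0.043 to 1.13) compartments, and for ENSANGT00000024799 in the cardia against the posterior midgut (-0.17 to 0.010) and whole midgut (-0.11 to 0.56).

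Of the 11 CLIP-domain protease and prophenoloxidase transcripts, 1 was called between the sexes with the center on all transcripts, with the 3 arrays alone and without the cardia against whole midgut arrays, against 0 otherwise. In the anterior compartment the number was 3, 2 and 2 under the same settings, against 1, and it was 0 without any 1 replicate. In the anterior-posterior compartment it was 2, but 1 with the center and the tested set both on all transcripts, 0 with the 3 arrays alone, 1 with the replicate block, 1 by the methods' t-test and 0 to 2 without 1 replicate. In the cardia against the posterior midgut it was 0 to 2 without 1 replicate. Of the 46 serine proteases there, 3 were called, but 6 with the 3 arrays alone, 6 without the cardia against whole midgut arrays, 5 by the methods' t-test and 1 to 2 without 1 replicate.

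Over the 45 pairs of arrays with the same replicate number, the r of their deviations was over 0.1 in 5. For the sexes and the posterior-posterior compartment it was 0.29, 0.13 and 0.23 for the 3 numbers, and no other pair of comparisons had all 3 over 0.1, so that the numbers were not taken as pairs across the comparisons. With the replicate block, SERPIN SRP15 stayed called in the cardia against the posterior midgut (adjusted p = 0.0190 by limma), and the number of serpins called changed in no comparison. The median of spots was not run, since no serpin had more than 2 spots.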
